A study of Mus musculus with 4 samples.

Results

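Gene expression was compared between cultured mouse neural stem cells whose labels carry a Tut1 deletion and cultures whose labels do not, with 2 libraries on each side and 4 libraries in the whole series. The control, titled wild type, was a Tut1f/f culture that received empty lipid nanoparticles (LNP). The library labelled Tut1 KO came from Tut1f/f cells, the library labelled P53 KO (here Trp53 KO, the gene's symbol) from p53f/f cells and the library labelled double KO from Tut1f/f;p53f/f cells, and each of these 3 cultures received LNP carrying mRNA for the recombinase Cre for 3 days. The cells were grown from the neocortex of mid-gestation embryos in medium with bFGF and EGF, and how many embryos stood behind a culture was not given in the sources used here. Every culture carried floxed alleles, the control was the sole culture without Cre, and the labels name no floxed Tut1 allele for the culture labelled Trp53 KO. The libraries of a side therefore differ in Trp53 label and in treatment and are not replicates of each other.

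Values were transcripts per 1000000 transcripts (TPM) for 55487 Ensembl gene IDs, and 9314 IDs reached 10 TPM in 1 or more libraries. For each of these, a gene was called separated when both libraries labelled Tut1-deleted (labelled Tut1 KO and double KO) lay on the same side of both others (control and labelled Trp53 KO) on log2(TPM + 1). The gap is the distance between the nearest libraries of the opposite sides on that log2 scale. The question was which transcripts followed the Tut1 label whatever the Trp53 label was.

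The enzyme Tut1 extends U6 snRNA, the small nuclear RNA at the catalytic centre of the spliceosome, by a short run of uridines at its 3′ terminus. The oligo(U) tail is bound by La and then by the Lsm2 to Lsm8 ring, and the exonuclease Usb1 trims it. U6 pairs with U4 and joins U5 in the tri-snRNP, which enters the spliceosome on an intron.

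The Tut1 values did not follow the labels. On the plus strand of chromosome 19 (8953847 to 8966210, GRCm38), Tut1 stood at 12.2 TPM (control) and 12.5 TPM (labelled Trp53 KO), against 29.8 TPM under the Tut1 KO label and 13.7 TPM under the double KO label. The level was thus higher, not lower, under both Tut1-deleted labels, with a gap of 0.12. All directions below rest on the labels. Trp53, measured in the same way, stood at 120 TPM (control) and 100.4 TPM (labelled Tut1 KO), against 39.7 TPM and 41.9 TPM in the libraries labelled Trp53 KO and double KO, so it followed its own label.

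In the floxed allele the loxP sites flank exon 2, which is 191 of the 2753 bases (6.94%) of the transcript Tut1-201. A gene-level TPM that adds reads from all 9 exons can stay high when that exon is missing. The sequence of exon 2 is shown because it is the stretch whose reads would tell a deleted from an intact transcript, and it was read from GENCODE M21 at chr19:8955387-8955577, plus strand.
Tut1 exon 2: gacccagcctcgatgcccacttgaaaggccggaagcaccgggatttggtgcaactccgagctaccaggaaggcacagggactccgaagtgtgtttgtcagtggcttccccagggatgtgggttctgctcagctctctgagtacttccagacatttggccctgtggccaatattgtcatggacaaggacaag
The exon lies within the coding sequence, at transcript bases 176 to 366. Its length leaves a remainder of 2 when divided by 3. When a script joined exon 1 to exon 3 and read on from the annotated start codon, the first stop came after 81 codons, against 869 codons in the full frame. Exon-level values were not analysed here, so the share of deleted transcripts in any library could not be given.

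The cells carried the markers of neural stem cells in all 4 libraries. Each of the 15 neural stem cell markers passed the TPM minimum and their summed level ranged from 11527 to 13502 TPM. Sox2 lay between 293 and 385 TPM and Nes between 313 and 417 TPM. The lists of microglia, endothelial, and fibroblast and mural markers each summed to at most 3.04 TPM in any library, and no member passed the minimum. Xist was at 188 TPM under the Tut1 KO label and 204 TPM under the Trp53 KO label, and the 4 Y-linked transcripts measured were listed at 0 there, while the control and the library labelled double KO had the opposite pattern. Each side of the comparison thus held a library of each kind, and the sex-linked split coincides with the disagreement of the 2 Tut1 differences.

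Of the 9314 genes tested, 1421 lay higher in both libraries labelled Tut1-deleted (15.3%) and 1597 lay lower (17.1%), together 3018 (32.4%). With a gap of at least 0.5, 49 genes lay higher (0.526%) and 86 lower (0.923%). A gap of at least 1 was reached by 14 genes higher (0.15%) and 21 lower (0.225%). The median difference between the sides over all tested genes was -0.03 on the log2 scale. Just inside the limit of 0.5 were Prpf8 (gap 0.50, higher) and Nt5dc2 (gap 0.50, lower), and just outside were Mterf3 (0.48, higher) and Mest (0.48, lower).

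In a limma fit across all tested genes, with the Tut1 and Trp53 labels as terms and 1 residual degree of freedom, 4 IDs rose (0.0429%) and 2 fell (0.0215%) at a Benjamini-Hochberg adjusted p under 0.05. They were Ednrb, Chmp3, both IDs of Septin2, Ctdsp2 and Gm21992, and the last 4 share exons or sequence with other IDs. Ctdsp2, Gm21992 and the Septin2 ID that rose passed the 10 TPM minimum only through the side where they are high. Each of the 6 lost its call in some of the alternative settings. At an unadjusted p under 0.05, 185 lay higher (1.99%) and 262 lower (2.81%). The residual here is the disagreement of the 2 Tut1 differences, and not a spread between repeated cultures. The 2 differences are labelled Tut1 KO minus control and labelled double KO minus labelled Trp53 KO. limma moderates the residual with a spread estimated from genes of similar level, with 6.72 prior degrees of freedom against 1. The SE and p of a gene therefore rest mostly on other genes, not on its own 2 differences. An exact permutation test of 2 against 2 libraries cannot give a two-sided p below 0.333, so none is given for single genes.

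**Figure D1:**
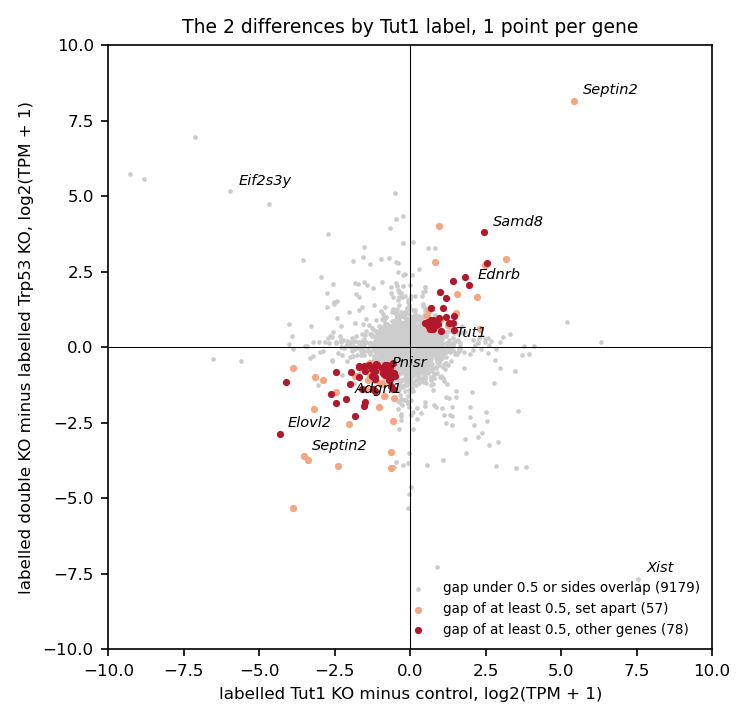
Each point is 1 of the 9314 tested genes, with the difference of the library labelled Tut1 KO from the control on the x axis and that of the library labelled double KO from the library labelled Trp53 KO on the y axis, both on log2(TPM + 1). The 135 genes with a gap of at least 0.5 lie in the upper right (49) and lower left (86), in dark red for 78 genes and in orange for 57 that are pseudogenes or predicted genes, share exons, lie on X or Y or have no annotation, whereas Xist and Eif2s3y lie in the opposite corners.

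Among genes that are neither pseudogenes nor predicted genes, share no exons and lie off X and Y, the widest gaps on the higher side belonged to Samd8, Larp1b, Zfp60 and Ednrb. Samd8, a ceramide phosphoethanolamine synthase of the endoplasmic reticulum, had 2.45 TPM (control) and 0.637 TPM (labelled Trp53 KO), against 17.9 TPM and 21.9 TPM in the libraries labelled Tut1 KO and double KO. Larp1b, an RNA-binding protein of the La-related family, had 0.376 TPM and 0.608 TPM against 7.03 TPM and 10.2 TPM in the same order. Zfp60, a zinc finger protein, had 2.99 TPM and 2.07 TPM against 13.02 TPM and 14.3 TPM. These 3 passed the 10 TPM minimum through the side where they are high alone, Larp1b through the library labelled double KO. So did Slc35e2 and Pramel12, which makes 5 of the 12 named genes on the higher side. On the lower side 7 of the 12 did, namely Elovl2, Adgrl1, Wdfy1, Utrn, Aak1, Flcn and Gga3. With pseudocounts of 5 and 0.1 the difference ran from 1.94 to 3.86 for Samd8, from 1.30 to 3.88 for Larp1b and from 1.31 to 2.41 for Zfp60.

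Ednrb, a receptor for endothelins that is expressed in neural crest and glial lineages, was the named gene with unshared exons that passed the test on the higher side. Its level was 20.8 TPM (control) and 17.4 TPM (labelled Trp53 KO), and 83.7 TPM and 75.6 TPM in the libraries labelled Tut1 KO and double KO. Both Tut1-labelled libraries were close together and far from both others. The log2 difference was 2.01 ± 0.18 (SE, n = 2 libraries a side, limma adjusted p = 0.0109, higher in 2 of 2 differences). This adjusted p ranged from 0.00283 to 0.994 over 15 alternative settings and stayed under 0.05 in 7 of them.

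The other 8 genes of the higher side had gaps from 0.80 to 1.42. Kidins220, a scaffold of neurotrophin receptors, had 10.2 TPM in the control, 5.66 TPM in the library labelled Trp53 KO, 29.2 TPM in the library labelled Tut1 KO and 29.3 TPM in the library labelled double KO. Prpf38b, a splicing factor, had 25.2 and 25.9 TPM against 54.2 and 65.5 TPM. Tcf12, a basic helix-loop-helix partner of proneural factors, had 34.3 and 30.8 TPM against 69.0 and 113 TPM. Their limma adjusted p-values were 0.0911, 0.102 and 0.132, and none of the 8 passed. The remaining 5 were Slc35e2, Itm2c, Pramel12, Mrpl58 (a peptidyl-tRNA hydrolase of the mitochondrial ribosome) and Bcas1 (a marker of newly forming oligodendrocytes). Bcas1 went from 24.5 and 27.9 TPM to 60.8 and 49.3 TPM, while summed oligodendrocyte lineage markers ranged from 99.7 to 118 TPM and did not separate by the label. Whether a shift in cell type has a part in Bcas1 was not tested, and in bulk cultures more cells of a type cannot be told apart from more RNA per cell.

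**Figure D2:**
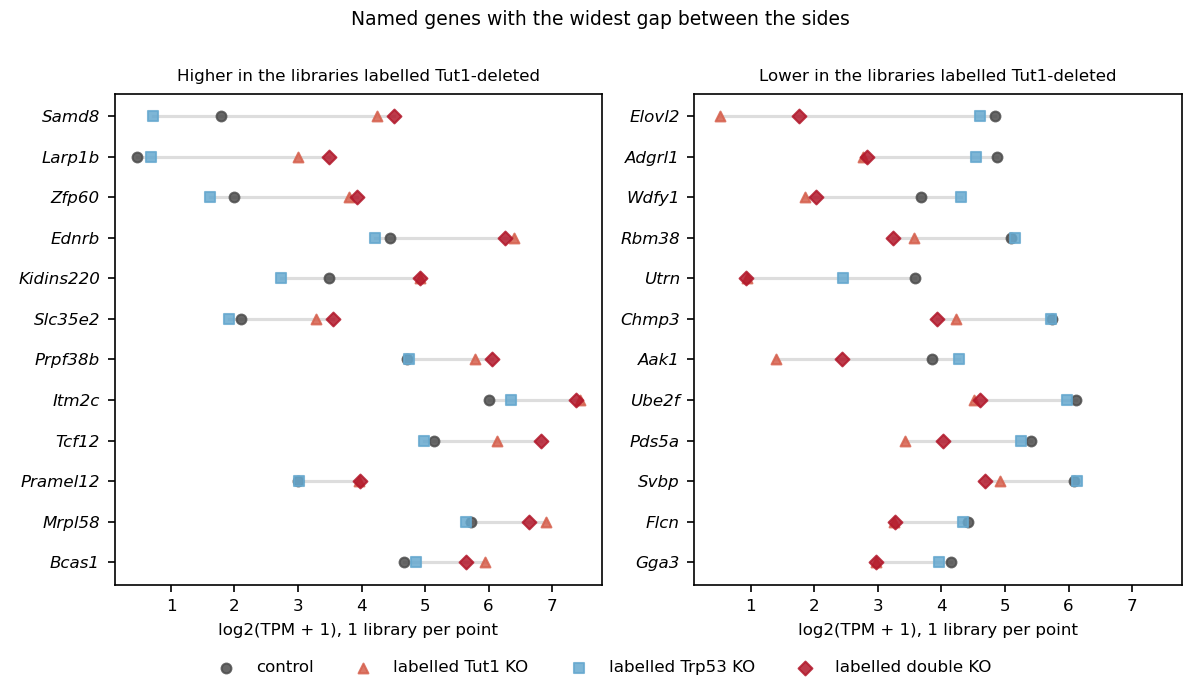
The x axes give log2(TPM + 1) and each point is 1 library, for the 12 named genes with the widest gap higher (left) and lower (right) in the libraries labelled Tut1-deleted. In every row the triangle and diamond (labelled Tut1 KO and double KO) lie on the same side of the circle and square (control and labelled Trp53 KO), with Elovl2 showing the widest gap at 2.86.

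Elovl2 had the widest gap on the lower side once pseudogenes, predicted genes and genes with shared exons were set apart. It encodes an elongase that lengthens very long chain polyunsaturated fatty acids on the way to docosahexaenoic acid, a major lipid of brain membranes. Its gene lies on chromosome 13 from 41182381 to 41220405 on the minus strand. The level was 27.7 TPM (control) and 23.4 TPM (labelled Trp53 KO), against 0.434 TPM and 2.37 TPM in the libraries labelled Tut1 KO and double KO. Elovl2 thus passed the 10 TPM minimum only through the side where it is high. The difference was -4.32 within the first pair and -2.86 within the second pair, on average -3.59 ± 0.55 (SE, n = 2 libraries a side, limma adjusted p = 0.102). It was lower in 2 of 2 differences and did not pass the test. The mean difference was -2.27 with a pseudocount of 5 and -4.48 with 0.1.

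Elovl2 belongs to a list of fatty acid elongation and desaturation. Of 21 list members tested, 1 lay higher (4.76%) and 2 lower (9.52%), below the 15.3% and 17.1% of all tested genes, with a median difference of -0.17 against -0.03 over all tested genes. In both Tut1 differences 9 of the 21 were lower and 3 higher, where 24.1% and 21.96% of all tested genes were. Without the library labelled double KO 13 lay lower (61.9%, against 46.9% of all tested genes), and without the library labelled Tut1 KO 3 did (14.3%, against 28.4%). Besides Elovl2, the lower member was Fasn, fatty acid synthase, at 99.0 and 106 TPM in the control and the library labelled Trp53 KO and 74.6 and 90.8 TPM in the libraries labelled Tut1 KO and double KO. Hacd1, a dehydratase of the elongation cycle, lay higher, at 81.0 and 80.7 TPM against 101 and 104 TPM, with 32.0% of its 31-base words found in other IDs. Elovl5, another elongase of polyunsaturated fatty acids, overlapped between the sides at 125 to 193 TPM.

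The genes whose log2 pattern over the 4 libraries was most like that of Elovl2, by the summed absolute distance of centred values, were a Septin2 ID (distance 1.52), Gm49933 (1.94), Gm3150 (2.12), Aak1 (2.90) and Gng5-ps (2.91). Of these 5, Aak1 was the only gene that is neither a pseudogene or predicted gene nor shares exons with another ID. Aak1, a kinase of clathrin-coated vesicles, had 13.4 TPM (control) and 18.4 TPM (labelled Trp53 KO), against 1.64 TPM and 4.40 TPM in the libraries labelled Tut1 KO and double KO. Like Elovl2, it passed the 10 TPM minimum only through the side where it is high.

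The other 10 genes of the lower side held several with little change inside a side. Chmp3, a subunit of the ESCRT-III membrane scission machinery, had 52.4 and 52.0 TPM in the control and the library labelled Trp53 KO, and 17.7 and 14.2 TPM in the libraries labelled Tut1 KO and double KO. Its log2 difference was -1.66 ± 0.19 (SE, n = 2 libraries a side, limma adjusted p = 0.044, lower in 2 of 2 differences). Across 15 alternative settings the adjusted p ran from 0.0156 to 0.994 and was under 0.05 in 3.

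Among genes not set apart in this way, Ube2f and Rbm38 came next in the fit, with limma adjusted p-values of 0.0542 and 0.0558. Ube2f, a NEDD8-conjugating enzyme, had 68.4 and 62.0 TPM in the control and the library labelled Trp53 KO against 21.7 and 23.3 TPM. Rbm38, an RNA-binding protein and known p53 target, had 33.3 and 34.8 TPM against 10.8 and 8.40 TPM, so its level in the libraries of 1 side hardly differed by Trp53 label. Adgrl1, an adhesion receptor of synapses also called latrophilin, had 28.4 and 22.2 TPM against 5.77 and 6.08 TPM. Svbp, which binds vasohibins in tubulin detyrosination, had 66.8 and 69.4 TPM against 29.4 and 24.8 TPM. The groups did not overlap for any of these, and none passed the test. Wdfy1, Utrn (utrophin), Pds5a (a cohesin regulator), Flcn (folliculin) and Gga3 (a sorting adaptor of the Golgi) completed the set with gaps from 0.99 to 1.65.

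Pnisr, a nuclear protein rich in serine and arginine, is among the genes whose splicing the study followed and lay lower in both libraries labelled Tut1-deleted. It had 67.4 TPM in the control, 64.1 TPM in the library labelled Trp53 KO, 36.0 TPM in the library labelled Tut1 KO and 34.8 TPM in the library labelled double KO. Its differences were -0.89 and -0.86, with a gap of 0.82 (mean -0.88 ± 0.18, SE, n = 2 libraries a side, limma adjusted p = 0.254). Of the 13 genes on that list, 1 lay higher (7.69%, C1qbp, gap 0.09) and 4 lower (30.8%), among them Pnisr and Srsf10, against 15.3% and 17.1% of all tested genes, and the study chose the list with cells of this kind in hand, so its direction is not independent evidence. Prpf4b, a kinase of the spliceosome, overlapped between the sides at 31.2 to 44.8 TPM.

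The splicing machinery was described by list. Of 35 core spliceosome genes, all tested, 16 lay higher (45.7%, against 15.3% of all tested genes) and 1 lower (Snrnp70, gap 0.02), with a median difference of 0.09 against -0.03. Snrnp200, the helicase that unwinds U4 from U6, had 45.2 TPM (control) and 42.0 TPM (labelled Trp53 KO), against 74.2 TPM and 79.7 TPM in the libraries labelled Tut1 KO and double KO (gap 0.70). Prpf8, the U5 protein at the catalytic centre, had 71.7 and 67.7 TPM against 102 and 119 TPM. These were the 2 members with a gap of at least 0.5, and their limma adjusted p-values were 0.321 and 0.603. Most of the other members that lay higher were Sm proteins and U2 proteins with small gaps, among them Snrpe (gap 0.30), Sf3a2 (0.31), U2af1 (0.17) and Snrpd2 (0.15).

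Of 18 genes of U6 maturation and the Lsm ring, 8 lay higher (44.4%) and 1 lower (5.56%), against 15.3% and 17.1% of all tested genes, with a median difference of 0.10 against -0.03. Prpf3, which contacts U4/U6, had 38.9 TPM (control) and 30.4 TPM (labelled Trp53 KO), against 54.4 TPM and 64.5 TPM in the libraries labelled Tut1 KO and double KO (gap 0.47). Lsm7 had 164 and 175 TPM against 282 and 239 TPM (gap 0.45). Ppih, a peptidyl-prolyl isomerase of the tri-snRNP, had 82.9 and 65.1 TPM against 107 and 101 TPM (gap 0.28). Usb1, which trims the U6 tail, was the lower member at 24.4 and 29.97 TPM against 22.5 and 23.3 TPM (gap 0.06). Lsm8, the subunit particular to the nuclear ring, overlapped at 123 to 142 TPM. Without the library labelled Tut1 KO 14 of the 18 lay higher (77.8%, against 36.6% of all tested genes), and without the library labelled double KO 9 lay higher (50%, against 29.5%) and 4 lower (22.2%, against 46.9%). No member of either list passed the limma test after adjustment, and 3 and 2 members had an unadjusted p under 0.05 in the U6 and core lists.

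Of 36 regulators of splicing tested, none lay higher (0%, against 15.3% of all tested genes) and 6 lay lower (16.7%, near the 17.1% of all tested genes), with a median difference of -0.11. The lower members were Srsf10, Tra2a, Hnrnpm, Srsf5, Clk2 and Srsf2. Srsf10, a serine and arginine rich repressor of splicing, had 78.9 TPM (control) and 70.8 TPM (labelled Trp53 KO), against 44.5 TPM and 62.3 TPM in the libraries labelled Tut1 KO and double KO. Tra2a, a splicing activator, had 106 and 103 TPM against 72.5 and 89.7 TPM. When the library labelled double KO was left out, 0 regulators lay higher and 26 lower (72.2%), where 29.5% of all tested genes lay higher and 46.9% lower. When the library labelled Tut1 KO was left out, 8 lay higher (22.2%) and 9 lower (25%), where all tested genes gave 36.6% and 28.4%. In the core spliceosome list the same omissions gave 21 higher (60%) and 9 lower (25.7%), and 25 higher (71.4%) and 1 lower (2.86%), against the same shares of all tested genes.

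**Figure D3:**
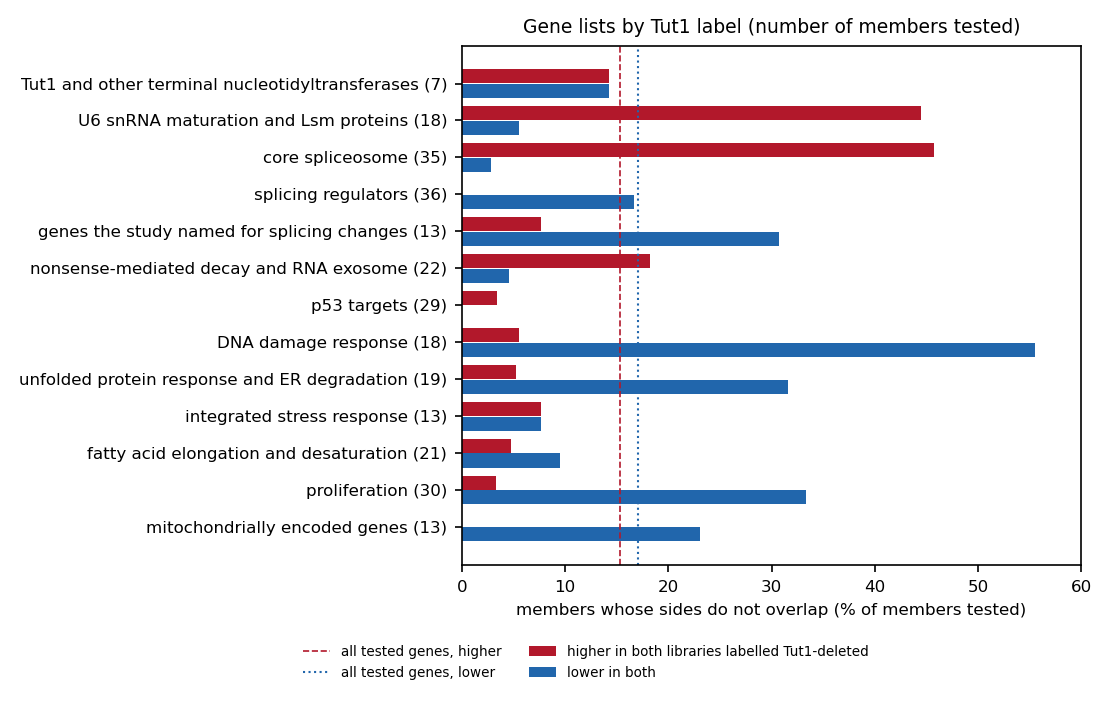
Bars give the share of tested members, in percent, that lay higher (red) or lower (blue) in both libraries labelled Tut1-deleted for the 13 lists with at least 7 members tested, and the lines give the shares over all tested genes (15.3% and 17.1%). Red bars exceed the line by most for the core spliceosome (45.7%) and U6 and Lsm lists (44.4%), and the blue bar does so for the DNA damage response (55.6%).

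Among lists on the fate of the cells, the DNA damage response stood lower. Of 18 tested, 10 lay lower (55.6%, against 17.1%) and 1 higher, with a median difference of -0.21 and no gap of 0.5. Fanci, a Fanconi anaemia protein, had 15.6 TPM (control) and 15.2 TPM (labelled Trp53 KO), against 9.92 TPM and 12.1 TPM in the libraries labelled Tut1 KO and double KO. Brca2, a protein of homologous recombination repair, had 11.5 and 14.5 TPM against 9.21 and 9.52 TPM. It passed the 10 TPM minimum only through the side where it is high. Chek1, the checkpoint kinase of replication stress, was the higher member at 12.6 and 8.57 TPM against 17.2 and 24.99 TPM (gap 0.42, limma adjusted p = 0.747). Quantile normalization gave 7 lower (38.9%, against 15% of all tested genes), equal medians 8 (44.4%, against 14.5%) and the composition correction 8 (44.4%, against 20.5%). Leaving out the library labelled Tut1 KO gave 10 (55.6%, against 28.4%), and leaving out the library labelled double KO gave 14 (77.8%, against 46.9%).

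Of 30 proliferation genes, 10 lay lower (33.3%, against 17.1% of all tested genes) and 1 higher, Mcm5. Gaps were small, at most 0.17 for Mcm7, whose exons are shared, and 0.13 for Ccne1. Mki67 had 77.8 and 75.5 TPM in the control and the library labelled Trp53 KO against 54.7 and 71.8 TPM in the libraries labelled Tut1 KO and double KO. Without the library labelled double KO 27 members lay lower (90%, against 46.9% of all tested genes). Once the library labelled Tut1 KO was left out the median difference turned from -0.12 to 0.01 (0.02 over all tested genes), with 10 members higher (33.3%) and 11 lower (36.7%), against 36.6% and 28.4% of all tested genes.

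Of 19 genes of the unfolded protein response and ER degradation, 6 lay lower (31.6%) and 1 higher (5.26%), where all tested genes gave 17.1% and 15.3%. Without the library labelled double KO 13 lay lower (68.4%, against 46.9% of all tested genes). Without the library labelled Tut1 KO 9 lay lower (47.4%, against 28.4%) and 5 higher (26.3%, against 36.6%), with the median going from -0.16 to -0.05. Xbp1, a transcription factor of that response, had 21.3 and 21.4 TPM in the control and the library labelled Trp53 KO against 15.3 and 16.4 TPM (gap 0.36), and Derl1, of the ER degradation channel, had 30.9 and 31.6 TPM against 37.6 and 39.9 TPM (gap 0.24). The integrated stress response had 1 higher and 1 lower of 13 (7.69% each, against 15.3% and 17.1% of all tested genes), with a median difference of -0.19. In both Tut1 differences 7 of the 13 were lower, where 24.1% of all tested genes were. Without the control 10 lay lower (76.9%, against 28.9% of all tested genes), and without the library labelled Tut1 KO the median was 0.06. Of 22 genes of nonsense-mediated decay and the RNA exosome, 4 lay higher (18.2%, near the 15.3% of all tested genes), among them Exosc4 (gap 0.26) and Dis3l2 (gap 0.16), and 1 lower (4.55%, against 17.1%). Without the library labelled Tut1 KO 10 lay higher (45.5%, against 36.6%) and 2 lower (9.09%, against 28.4%). Without the library labelled double KO 6 lay higher (27.3%, against 29.5%) and 12 lower (54.5%, against 46.9%). Of 7 terminal nucleotidyltransferases and poly(A) polymerases tested, Tut1 lay higher, Tent4a lower by a gap of 0.003, and Tut4, Tut7, Tent2, Mtpap and Papola overlapped.

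Of 29 targets of p53 tested, Sesn1 alone lay higher (3.45%, gap 0.21) and none lower, against 15.3% and 17.1% of all tested genes. A gene that differs by Trp53 label can hardly separate by Tut1 label, because each side holds a library of both Trp53 labels. Within the 2 Tut1 differences, 11 of the 29 were higher in both and 0 lower in both, where 21.96% and 24.1% of all tested genes were. Cdkn1a, which encodes the p53-induced cell cycle inhibitor p21, had 477 TPM in the control, 605 TPM in the library labelled Tut1 KO, 196 TPM in the library labelled Trp53 KO and 179 TPM in the library labelled double KO. Its sides overlapped, and the low levels went with the Trp53 label. Of 13 mitochondrially encoded genes, 3 lay lower (23.1%, against 17.1% of all tested genes) and none higher, with a median difference of -0.15 and the widest gap, 0.26, in mt-Nd5. Without the control 5 lay higher (38.5%, against 30.9% of all tested genes) and 3 lower (23.1%, against 28.9%). Without the library labelled Trp53 KO 12 lay lower (92.3%, against 37.4% of all tested genes), and after the GC and length correction the median was -0.03. Both interferon response genes that passed the minimum and all 4 sex-linked transcripts that did overlapped as well.

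Of 15 neural stem cell markers, Hes5 lay higher (6.67%, against 15.3% of all tested genes) and none lower, where 17.1% of all tested genes did. Hes5, a Notch effector that keeps neural precursors undifferentiated, had 39.6 TPM (control) and 36.8 TPM (labelled Trp53 KO), against 59.8 TPM and 66.5 TPM in the libraries labelled Tut1 KO and double KO (gap 0.58, limma adjusted p = 0.491). The related factor Hes1 overlapped at 86.7 to 104 TPM. Of 3 neuron markers tested, Snap25, a synaptic vesicle fusion protein, alone lay lower at 9.65 and 10.5 TPM against 3.38 and 6.06 TPM (gap 0.59), while Map2 and Tubb3 overlapped. Snap25 passed the 10 TPM minimum through the library labelled Trp53 KO alone, on the side where it is high, and did not pass the limma test. Of 3 astrocyte markers tested, Gja1 lay lower by a gap of 0.05, and 3 markers are too few to set beside the shares of all genes.

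Small nucleolar RNAs (snoRNAs), which guide the modification of other RNAs and in mice are mostly cut from introns of host genes, held 16 higher and 6 lower among 43 tested (37.2% and 14%, against 15.3% and 17.1% of all tested genes). With a gap of at least 0.5 there were 4 higher and 1 lower (9.3% and 2.33%, against 0.526% and 0.923%). Of the 4 that lay higher, 3 had names, Snord35a, Snord34 and Snora31. Snord34 and Snord35a lie on chromosome 7 inside Rpl13a on the minus strand and are shown because both passed this gap while their host overlapped, beside Snord32a, a neighbour in the same host. Capitals mark TGATG in the first 20 bases and CTGA in the last 20, the letters of box C and box D on the printed strand.
Snord34 (chr7:45126601-45126670): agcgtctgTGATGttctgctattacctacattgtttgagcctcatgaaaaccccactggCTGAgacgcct
Snord35a (chr7:45126346-45126435): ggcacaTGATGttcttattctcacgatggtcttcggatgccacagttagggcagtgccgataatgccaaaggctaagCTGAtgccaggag
Snord32a (chr7:45127382-45127464): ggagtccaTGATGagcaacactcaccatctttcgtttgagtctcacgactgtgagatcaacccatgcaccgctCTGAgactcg
Both marks stood in 26 of the 43 snoRNAs (60.5%), of which 9 lay higher and 4 lower, against 7 higher and 2 lower of the 17 without both. The sequences were read from GENCODE M21 on GRCm38.

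Snord35a had 13.6 TPM in the control, 13.3 TPM in the library labelled Trp53 KO, 23.2 TPM in the library labelled Tut1 KO and 23.5 TPM in the library labelled double KO (gap 0.73). Snord34 had 12.6 and 11.9 TPM against 19.5 and 20.4 TPM (gap 0.59). Snord32a had 12.7 and 13.8 TPM against 14.4 and 16.9 TPM, a gap of 0.06. The host Rpl13a overlapped between the sides, with a mean difference of -0.07. Snora31, from an intron of Tpt1, had 12.3 and 14.7 TPM against 25.9 and 21.9 TPM (gap 0.54), and Tpt1 overlapped with a mean difference of 0.03. Reads over a snoRNA in an mRNA library can come from the snoRNA or from unspliced host RNA, and these cannot be told apart in TPM.

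Many of the genes with a gap were set apart because another ID can take their reads. Of the 891 pseudogenes and predicted genes tested, 9 lay higher (1.01%) and 27 lower (3.03%) by at least 0.5, and of the 734 genes that share exons on their strand, 9 lay higher and 9 lower (1.23% each). The 284 other genes on X or Y held 1 higher and 1 lower, and the 7 IDs with no annotation held 1 higher. The remaining 7398 genes gave 29 higher (0.392%) and 49 lower (0.662%).

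Septin2, a filament-forming GTPase, has 2 IDs over the same locus on chromosome 1. ENSMUSG00000026276 had 265 TPM (control) and 249 TPM (labelled Trp53 KO), against 21.997 TPM and 19.7 TPM in the libraries labelled Tut1 KO and double KO. ENSMUSG00000116048 had 4.10 TPM in the control, was listed at 0 in the library labelled Trp53 KO, and had 221 TPM and 288 TPM in the libraries labelled Tut1 KO and double KO. Both passed the limma test (adjusted p-values 0.000548 and 0.00527) in opposite directions, ENSMUSG00000116048 having met the 10 TPM minimum only through the side where it is high. Their sum was 270, 249, 243 and 308 TPM in the control and the libraries labelled Trp53 KO, Tut1 KO and double KO, with overlapping sides. The assignment to an ID thus followed the Tut1 label, and the total of the locus did not.

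Gm21992, a predicted gene that shares exons or sequence with the RNA-binding genes Rbm14 and Rbm4, rose from 2.67 and 2.97 TPM to 32.0 and 29.2 TPM (limma adjusted p = 0.032). It passed the 10 TPM minimum only through the side where it is high. Rbm14 had the opposite pattern, with 34.7 and 33.1 TPM against 14.3 and 16.6 TPM (gap 0.95). The sum over these, Rbm4 and Rbm4b was 72.3 and 70.9 TPM against 78.4 and 83.0 TPM, with a gap of 0.11. Ctdsp2, a phosphatase of the RNA polymerase II tail, shares exons with microRNA entries that were below 1 TPM, and its rise from 8.92 and 8.21 TPM to 53.9 and 59.8 TPM (limma adjusted p = 0.00527) stood in the sum with its pseudogene Gm9770 too, with a gap of 1.93. P2rx7, an ATP-gated channel, had 6.88 and 5.47 TPM against 35.2 and 19.4 TPM, and Nnt, the mitochondrial transhydrogenase, had a gap of 0.84 after its 2 IDs were summed. Ctdsp2, P2rx7 and the tested Nnt ID passed the 10 TPM minimum only through the side where they are high.

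Of the 25 pseudogenes lower by at least 0.5, 24 had a tested protein-coding gene among the few IDs that shared the most 31-base words with them. The shared part ran from 1.1% of the words (Ccnb2-ps with Eml1) to 92.9% (Rps27a-ps2 with Rps27a). Rpl30-ps8 had no such gene among those few IDs, and IDs beyond them were not searched. The partner gene lay higher in 15 of the 24, with 11 different genes, lower in 1 and overlapped in 8, against 15.3% and 17.1% over all tested genes. For the 5 pseudogenes higher by at least 0.5, the partner lay higher in 2, lower in 1 and overlapped in 2. Gng5-ps, Gm3150 and Gm13342, copies of the G protein subunit gene Gng5, had 21.8, 24.0 and 12.3 TPM in the control, against 0.548, 1.36 and 1.55 TPM under the Tut1 KO label. Gng5 itself had 260 and 277 TPM in the control and the library labelled Trp53 KO against 376 and 344 TPM in the libraries labelled Tut1 KO and double KO. The 4 IDs together had 318, 372, 380 and 346 TPM in the same order, so the sides overlapped.

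Rps27a, which encodes a fusion of ubiquitin with a ribosomal protein, had 875 and 1145 TPM against 2420 and 1718 TPM (gap 0.58), and 21.9% of its 31-base words occur in other IDs. Its copy Rps27a-ps2 had 833 and 706 TPM against 231 and 368 TPM, and the sum over 4 IDs overlapped. Ndufa12-ps had 374 and 323 TPM against 136 and 122 TPM, and its parent Ndufa12, of respiratory complex I, had 126 and 157 TPM against 215 and 201 TPM. Their sum stayed lower in the libraries labelled Tut1-deleted, with a gap of 0.45. Pseudogene values and those of their parents are therefore uncertain one by one.

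**Figure D4:**
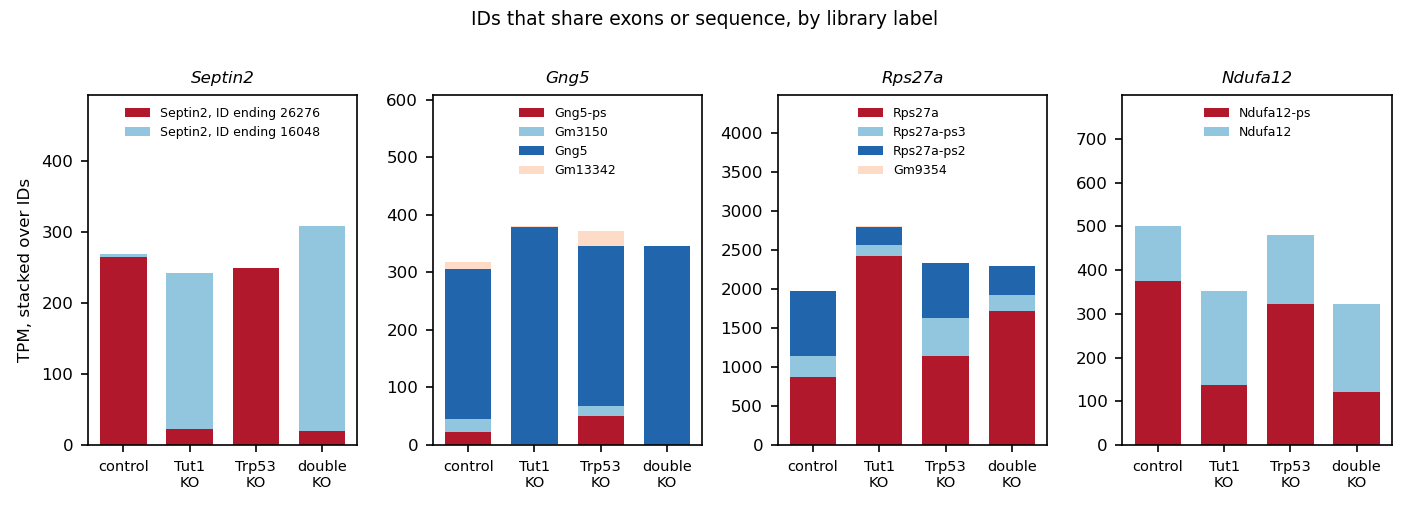
Stacked bars give TPM per library for IDs that share exons or sequence, with the y axis from 0 in each panel. The height of the stack overlaps between the sides for Septin2, Gng5 and Rps27a while the split between IDs changes with the label, and for Ndufa12 the stack is also lower in the libraries labelled Tut1-deleted (351 and 324 TPM against 500 and 480 TPM).

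The separated genes differed in base composition. Among 7075 protein-coding genes with unshared sequence, the 1063 that lay higher had a median transcript GC content of 52.3%, the 1218 that lay lower 49.0% and all 49.7%. Their median transcript lengths were 2691, 3644.5 and 3396 bases and their median exon counts 7, 10 and 8. Across these genes, as a description with no p, Spearman's rho of the mean difference was 0.21 with GC content and -0.22 with transcript length. The 2 differences went opposite ways, with rho for GC content of 0.43 in labelled Tut1 KO minus control and -0.22 in labelled double KO minus labelled Trp53 KO. The 25 genes higher and 46 lower by at least 0.5 had medians of 50.9% and 46.9%.

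**Figure D5:**
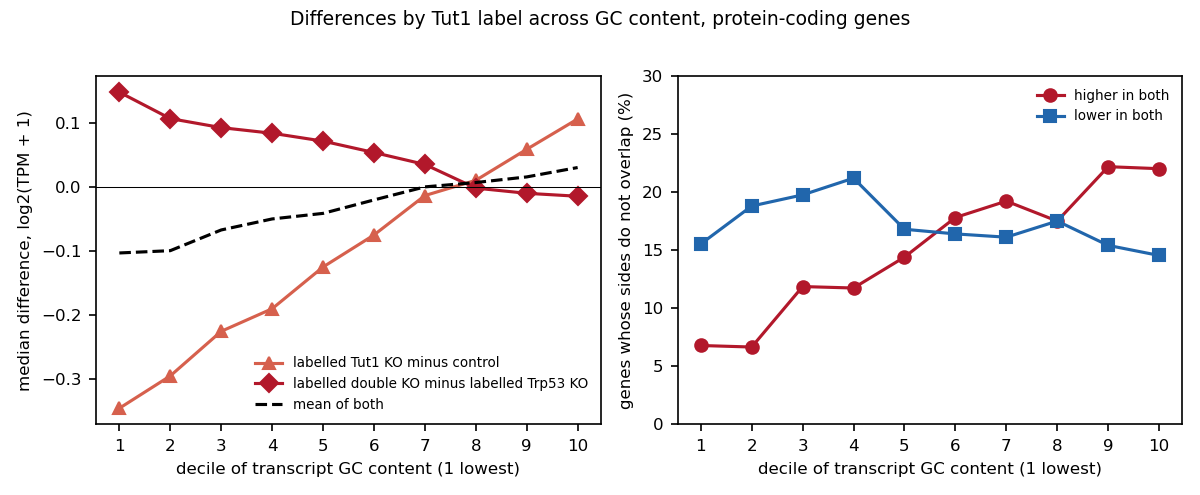
The left panel gives the median log2 difference by decile of transcript GC content, which runs from -0.35 to 0.11 for labelled Tut1 KO minus control and from 0.15 to -0.01 for labelled double KO minus labelled Trp53 KO. The right panel gives the share of genes that lay higher or lower in both libraries labelled Tut1-deleted, in percent, and the share lying higher runs from 6.78% in the lowest to 22% in the highest decile.

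After a correction for GC content and length within each library, 51 genes lay higher and 92 lower by at least 0.5, of which 41 and 80 were among the 49 and 86. The core spliceosome then had 13 higher and 0 lower, the U6 and Lsm list 9 higher and 1 lower, and the splicing regulators 0 higher and 13 lower (36.1%). Under this correction 15.2% of all tested genes lay higher and 20.5% lower. Around Tut1 itself, 157 tested genes start within 5 Mb on chromosome 19, and 39 of them lay higher (24.8%) and 21 lower (13.4%), against 15.3% and 17.1% of all tested genes.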

How the data were processed

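The authors deposited 1 table of TPM, a unit scaled to a sum of 1000000 per library that keeps no read depth, so the depth of each library is unknown and no interval from counts could be given. The submitters' processing notes name Trimmomatic, HISAT2, StringTie and mm10, and those notes give no versions. The labels name a stranded Illumina mRNA kit and the series text Nanopore sequencing, so the platform behind the values is uncertain. No column of another sample was present. Groups came from the labels, with 1 library each and replicates not available.

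IDs were joined to GENCODE M21 on GRCm38 (9305 of 9314 tested IDs matched). Values were taken as log2(TPM + 1) for IDs that reached 10 TPM in 1 or more libraries. Fold differences on this scale understate those of low genes. Genes were called separated as described above, with a gap of at least 0.5 as the main limit. The Tut1 label was tested with limma 3.58.1 in R 4.3.3 (Tut1 and Trp53 labels as terms, intensity trend, two-sided, Benjamini-Hochberg over all tested IDs, threshold 0.05). The fit was also run on simulated data with normal noise taken from its own SE. Such data meet the model by design, so that run cannot show how well the model holds for these libraries. Shared exons were taken per strand, and shared sequence as 31-base words found in another ID with TPM of at least 1 (limit 20%). Named genes were Tut1, Trp53, Elovl2, Pnisr, the 12 widest gaps in each direction among named genes that are no pseudogenes or predicted genes, share no exons and lie off X and Y, the 3 widest in each direction among those set apart, the 5 most like Elovl2, and, in 15 gene lists and 7 marker lists, the widest gaps and members of fixed interest. Other genes, among them further members of a list, shared-read partners, snoRNAs and genes at the limit, were chosen after their values were seen. The members, lists and limits were chosen with earlier results of these data known. Alternatives changed the pseudocount, the TPM minimum, the scaling, the composition correction, the fit and the libraries.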

Additional observations from a re-analysis of the deposited data

Results flagged for a closer look

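The sex-linked transcripts moved in opposite directions in the 2 Tut1 differences, each time by 1 log2 unit or more, and the difference between the pairs was not tested. Xist differed by 7.55 in labelled Tut1 KO minus control and by -7.67 in labelled double KO minus labelled Trp53 KO, a difference of 15.2 between the pairs. The Y-linked Kdm5d differed by -2.71 and 3.74 (difference -6.45), Ddx3y by -4.67 and 4.74 (difference -9.41) and Eif2s3y by -5.98 and 5.17 (difference -11.1). Uty, below the TPM minimum and so not tested, had 6.65 TPM in the control and 6.81 TPM under the double KO label and stood at 0 under the Tut1 KO and Trp53 KO labels. Of all tested genes, 62 moved by 1 or more in opposite directions in this way, with no other named gene or list member among them. Of the snoRNAs tested, Snora33 did so, at 3.84 and -3.97.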

How the results depend on the processing

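With a gap of at least 0.5, the main setting gave 49 genes higher and 86 lower, and limma called 6. A TPM minimum of 1 gave 118 higher and 154 lower, no minimum gave 127 and 160 with 0 limma calls (1099 at an unadjusted p under 0.05), and at least 10 TPM in all 4 libraries gave 30 and 44. With that last minimum limma called 7, of which 3 were among the 6 of the main setting. Leaving out pseudogenes, shared exons and sequence, X and Y, an alternative chosen after seeing the data, gave 28 and 47 with 1 limma call, Ednrb. A gap above 0 gave 1421 and 1597, and a gap of at least 1 gave 14 and 21. limma called 19 genes without mitochondrial and ribosomal protein genes, 1 after the GC and length correction, 2 without the Trp53 term and 0 without the intensity trend (392 unadjusted). Leaving out 1 library in turn gave 142 to 231 genes higher, 211 to 490 lower and 0 to 12 limma calls. Those were 9 without the control, 12 without the library labelled Trp53 KO, 0 without the library labelled Tut1 KO (409 unadjusted) and 0 without the library labelled double KO (1052 unadjusted), where the lone library is assumed to vary like the others and no Trp53 term was fitted. Pseudocounts of 0.1 and 5, equal medians and quantile normalization moved no count by over 1.5 times. Equal medians moved the median difference of all genes by 0.04 and the split from 1421 higher and 1597 lower to 1820 and 1348. Of 33 IDs checked (Tut1, Trp53, Elovl2, Pnisr, the widest gaps and those set apart), 32 kept their sign under every alternative that gave them a value (up to 13, since 13 IDs reached 10 TPM in all 4 libraries), and Trp53, whose sides overlap, went from -0.09 to 0.70 without the control and to 0.53 without the library labelled double KO. No paired analysis was possible because each group has 1 library and the groups share a single replicate number, and the 2 Tut1 differences are matched by the Trp53 term alone. With 1 library per group, no difference has a replicate check, and the TPM give no depth.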
